A study of Homo sapiens with 12 samples.

Results

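LFNG and 9 other genes of the Notch pathway were examined in HCT116 cells: the fringe enzymes LFNG, MFNG and RFNG, the receptors NOTCH1, NOTCH2 and NOTCH3, the ligands JAG1 and JAG2, and the target genes HES1 and HEY1. They were chosen by gene name around LFNG, which was picked because it was lower in NH4Cl-treated than in control cells, and they are 10 of the 25733 genes with values. Since the NH4Cl and control libraries chose LFNG, the differences of all 10 genes between those groups are a description with no test, and LFNG itself is tested in no comparison against either group. RNA was sequenced from 12 libraries in 4 groups of 3. HCT116 is an established human colorectal cancer line, known to carry inactivating mutations in TGFBR2, which encodes a receptor for TGF-β. Control cells received neither agent. NH4Cl-treated cells received 10 mM NH4Cl, as a source of ammonia, for 24 h. TGF-β-treated cells received vehicle for 23 h and then 200 pM TGF-β for 1 h. NH4Cl + TGF-β cells received 10 mM NH4Cl for 23 h and then 200 pM TGF-β for 1 h. These doses and times come from the methods of the study, and the labels name only the agents.

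Notch receptors sit in the cell membrane and bind ligands of the Delta-like and Jagged families on neighbouring cells. Binding lets proteases cut the receptor, last of all γ-secretase, and the freed intracellular domain enters the nucleus, joins the DNA-binding protein RBPJ and turns on HES and HEY genes. Fringe enzymes extend O-linked fucose on the receptor and thereby change its response to each ligand family, and in the intestinal epithelium Notch signaling keeps progenitors dividing and, through HES1, holds back secretory cells.

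Levels are given as FPKM, which are reads per gene scaled by gene length and library depth, so that genes can be compared per length. Reads on genes numbered 14807630 to 18191998 per library (median 15484798). Between 2170 and 4382 of these fell on LFNG, whereas HEY1 had 19 to 47 and MFNG 20 to 64, so counting error alone makes the levels of these low genes uncertain. The 4 libraries of replicate 3 stood apart from the other 8. Mitochondrial genes took 4.50% to 5.12% of their reads, against 2.46% to 3.18% in replicates 1 and 2, and the part of this in the results was not tested. JAG1 had an FPKM of 7.77 to 8.62 in replicate 3 of the 4 groups and of 4.22 to 5.05 in replicates 1 and 2. The mean of replicate 3 was 2.25 times that of the others for NOTCH3, 1.77 times for HES1 and 0.735 times for NOTCH1. For LFNG it was 1.05 times and for NOTCH2 0.990 times. On the log2(FPKM + 1) scale, the difference between replicate 3 and the others was 0.75 for NOTCH3, 0.69 for JAG1, 0.67 for HES1 and -0.41 for NOTCH1, where the genes tested ranged from -0.38 at the 5th percentile to 0.53 at the 95th.

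Tests were made with limma on log2(FPKM + 1) for 12341 genes, those averaging 1 FPKM or more, in a model of all 12 libraries, and genes with an adjusted p-value under 0.05 were taken as past the threshold. Fold changes are on this scale, where low levels give smaller changes than their ratios do. Of the 10 genes, 8 passed this filter and were tested, and MFNG and HEY1 were below it. A second model took the replicate number as a block, and its values are given where they change a call. The labels do not say whether replicates were separate cultures, so the p-values measure only the spread between these samples.

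LFNG encodes the fringe enzyme lunatic fringe. Its gene (ENSG00000106003) spans bases 2512529 to 2529177 of GRCh38 chromosome 7, plus strand. FPKM of LFNG was 68.1, 63.8 and 68.3 in replicates 1, 2 and 3 of the control cells and 69.0, 68.8 and 76.8 with TGF-β. It was 46.3, 44.5 and 43.9 with NH4Cl and 48.3, 44.8 and 48.2 with NH4Cl + TGF-β. All 6 libraries with NH4Cl were low and all 6 without it were high, and the highest value with NH4Cl, 48.3, was well under the lowest without it, 63.8. The order of the group means was TGF-β (71.5 ± 4.54, SD, n = 3), control (66.7 ± 2.54), NH4Cl + TGF-β (47.1 ± 2.00) and NH4Cl (44.9 ± 1.24). The groups with NH4Cl overlapped each other, and those without it were only narrowly apart, at 68.3 at most in control cells and 68.8 at least with TGF-β. Among the genes tested, the mean level of LFNG stood at percentile 94.3. In bulk RNA, fewer cells with LFNG and less LFNG RNA per cell cannot be told apart.

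LFNG was also lower with NH4Cl in the presence of TGF-β: NH4Cl + TGF-β cells had 0.659 times the mean FPKM of TGF-β-treated cells. Earlier results of these data were known when the genes were chosen, so this test is not shown to be independent of the choice. The log2 fold change was -0.59 (standard error 0.0599, 95% interval -0.72 to -0.46, limma adjusted p = 0.00667), and LFNG was lower in 3 of 3 replicates, by -0.50, -0.61 and -0.66. The spread in this model comes from all 12 libraries, those that chose LFNG included. With only the 6 libraries of the groups compared, the same fold change did not pass (limma adjusted p = 0.212). In replicates 1 and 2 only it was -0.56, with a limma adjusted p of 0.00158 in the model with the block. Between NH4Cl and control cells, the contrast behind the choice of LFNG, the differences by replicate were -0.55, -0.51 and -0.62, with a mean of -0.56 and a ratio of means of 0.673. The interaction, which is the difference between these contrasts, was -0.03 for LFNG with a 95% interval of -0.22 to 0.16. The interaction holds the contrast that chose the gene, and it was not tested for LFNG.

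**Figure D1:**
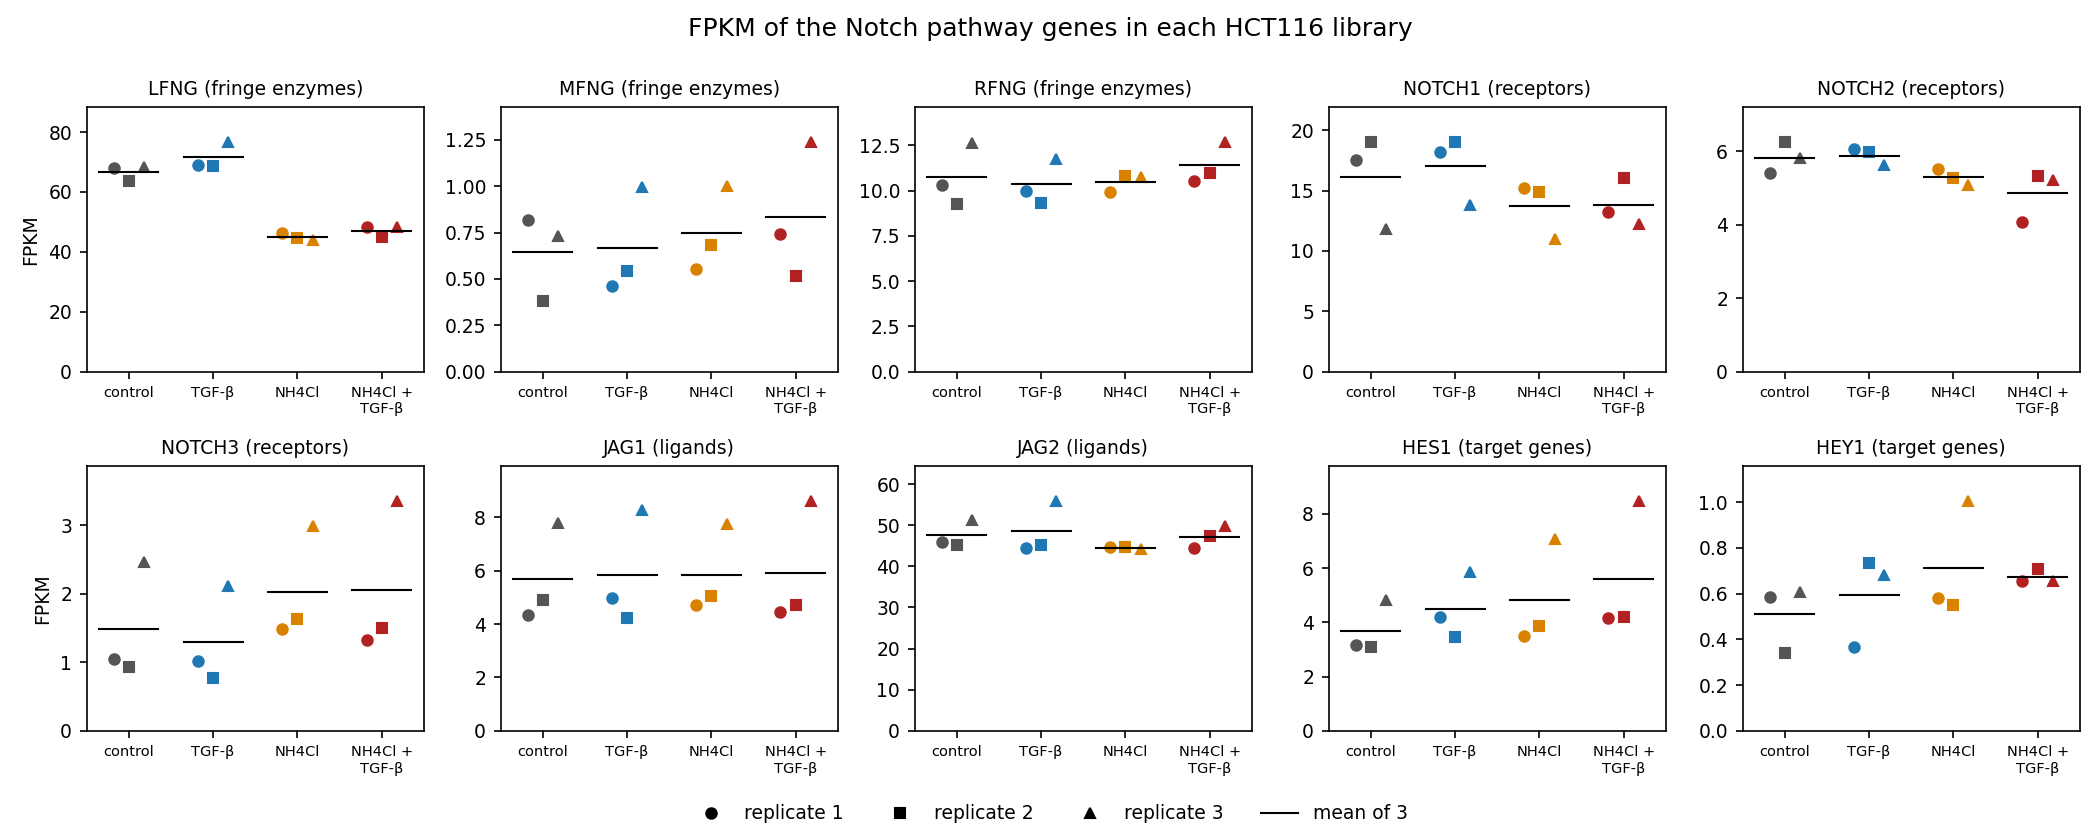
FPKM of the 10 Notch pathway genes in each of the 12 HCT116 libraries, by group on the horizontal axis, with a symbol for each replicate number and a line at the mean of 3. LFNG lies at 63.8 to 76.8 in the 6 libraries without NH4Cl and at 43.9 to 48.3 in the 6 with it, whereas replicate 3 of JAG1 lies at 7.77 to 8.62 in every group.

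The start regions of LFNG are printed because it is the gene that the choice of the 10 began with. It is also the 1 that passed without the block in the model of 12 libraries. RefSeq windows on GRCh38.p14, from 250 bases before to 50 after an annotated start, were searched for TGGGAA, the core of the motif that RBPJ binds, and for TTCCCA, the same letters on the other strand. Capitals mark the matches. The window at chr7:2512279-2512578 surrounds the first base of the gene and holds TTCCCA at -5 to 1, counted from the start base as 1 with no position 0. The window at chr7:2517613-2517912 surrounds a start that lies inside the gene and holds TGGGAA at -248 to -243. Both are on the plus strand.
LFNG window 1: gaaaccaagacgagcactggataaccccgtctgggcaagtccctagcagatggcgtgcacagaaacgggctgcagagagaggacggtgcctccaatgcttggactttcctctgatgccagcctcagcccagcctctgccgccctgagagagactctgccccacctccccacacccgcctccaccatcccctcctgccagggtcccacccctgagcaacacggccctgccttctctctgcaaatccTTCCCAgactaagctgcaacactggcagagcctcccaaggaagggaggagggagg
LFNG window 2: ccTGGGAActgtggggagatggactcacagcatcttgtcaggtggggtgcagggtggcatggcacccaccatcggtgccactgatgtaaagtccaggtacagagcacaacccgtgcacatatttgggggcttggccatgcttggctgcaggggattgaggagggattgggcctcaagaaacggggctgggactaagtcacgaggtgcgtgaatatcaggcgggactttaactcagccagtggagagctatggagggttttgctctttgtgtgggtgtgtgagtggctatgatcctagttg
The motif was in 8439 of the 35116 windows of all genes, so that a match in LFNG is a description and says nothing of binding. Windows were given for 8 of the 10 genes, of which 2, LFNG and HES1, held the motif (3 of 9 windows). MFNG and HEY1 had no entry.

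MFNG and RFNG encode the other fringe enzymes, manic fringe and radical fringe. Among the fringe genes LFNG was the most abundant, RFNG was lower and MFNG was near the limit of what these libraries show. RFNG had an FPKM of 10.3, 9.23 and 12.6 in replicates 1, 2 and 3 of the control cells, 9.98, 9.34 and 11.8 with TGF-β, 9.90, 10.8 and 10.8 with NH4Cl, and 10.5, 11.0 and 12.7 with NH4Cl + TGF-β. All groups overlapped. Between NH4Cl + TGF-β and TGF-β, RFNG was at 0.13 on the log2 scale (standard error 0.115; limma adjusted p = 0.725), higher in 3 of 3 replicates, and it did not pass with the block either (limma adjusted p = 0.223). RFNG shares 835 exon bases with GPS1 on the opposite strand, and reads may have been counted without regard to strand, so its level is uncertain. MFNG ranged from 0.383 to 1.24 over the 12 libraries, with group means from 0.643 in control cells to 0.832 with both agents, and was not tested.

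The makeup of the fringe transcripts followed LFNG. LFNG made up 85.9%, 86.9% and 83.6% of the summed FPKM of the 3 fringe genes in control replicates 1, 2 and 3, and 86.9%, 87.4% and 85.7% with TGF-β. With NH4Cl its share was 81.6%, 79.5% and 78.9%, and with NH4Cl + TGF-β 81.1%, 79.6% and 77.6%. Every share with NH4Cl lay under every share without it. The ratio of LFNG to RFNG was 5.40 to 6.91 in the control group, 6.52 to 7.37 with TGF-β, 4.08 to 4.68 in the NH4Cl group and 3.80 to 4.60 with both. The summed level of the 3 genes was 73.4 to 81.6 FPKM in the control group, 78.7 to 89.5 with TGF-β, 55.7 to 56.8 in the NH4Cl group and 56.3 to 62.1 with both. These shares, ratios and sums hold the values that chose LFNG and were not tested. Since LFNG made up most of the sum, they largely follow from its own values by arithmetic.

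Among the 3 receptors chosen, NOTCH1 was the most abundant and NOTCH3 the least. NOTCH1 (ENSG00000148400; chromosome 9, 136494433 to 136545786, minus strand) had an FPKM of 17.6, 19.0 and 11.9 in replicates 1, 2 and 3 of the control cells and 18.2, 19.1 and 13.8 with TGF-β. It was 15.2, 14.9 and 11.0 with NH4Cl and 13.2, 16.1 and 12.3 with NH4Cl + TGF-β. Replicate 3 was the lowest library of every group, and the groups overlapped, although within each replicate number NOTCH1 was lower with NH4Cl than in the control and lower with both agents than with TGF-β. The ratio of the mean with NH4Cl + TGF-β to that with TGF-β was 0.812. Its difference on the log2 scale, -0.28 (standard error 0.188, limma adjusted p = 0.604), was lower in 3 of 3 replicates and, in the model of 12 libraries, passed the threshold only with the block (standard error 0.0724, limma adjusted p = 0.0265). In replicates 1 and 2 it was -0.34, lower in both, with limma adjusted p-values of 0.0272 with the block and 0.0375 without it. The call with the block was lost with TPM, which gives every library an equal sum (-0.29, limma adjusted p = 0.0633), and with no filter on FPKM (-0.28, limma adjusted p = 0.0701), each lower in 3 of 3 replicates and each a setting chosen after seeing the data. With the block, leaving out replicate 1, 2 or 3 of the TGF-β-treated cells raised the limma adjusted p of this fold change of NOTCH1, lower in the replicates that remained, to 0.0909, 0.0671 and 0.0693. Leaving out replicate 1 or 2 of the NH4Cl + TGF-β cells raised it to 0.0872 and 0.0632, with log2 fold changes of -0.18 and -0.29.

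NOTCH2 (ENSG00000134250; chromosome 1, 119911553 to 120069626, minus strand) had an FPKM of 5.41, 6.26 and 5.81 in control replicates 1, 2 and 3 and 6.05, 5.97 and 5.62 with TGF-β. It was 5.51, 5.27 and 5.08 with NH4Cl and 4.07, 5.34 and 5.22 with NH4Cl + TGF-β. The 3 libraries with NH4Cl + TGF-β were all lower than the 3 with TGF-β, the lowest being replicate 1, whereas the NH4Cl and control libraries overlapped. NOTCH2 was at -0.23 on the log2 scale between NH4Cl + TGF-β and TGF-β (standard error 0.0876, limma adjusted p = 0.273), lower in 3 of 3 replicates, and the limma adjusted p with the block was 0.0604. Without replicate 3 of the NH4Cl + TGF-β cells, NOTCH2 passed the threshold in the model with the block, where it was at -0.30 (limma adjusted p = 0.0468, lower in both replicates left). Leaving out replicate 1 of these cells instead brought NOTCH2 to -0.13 (limma adjusted p = 0.203 with the block, lower in both replicates left). NOTCH2 has near-identical partial copies in the NOTCH2NL genes, so its values are uncertain. Of the 7 genes tested besides LFNG, NOTCH2 alone was lower in every NH4Cl + TGF-β library than in any TGF-β library, as were 919 of 12341 genes tested (7.45%). LFNG was too, but is not counted since it was chosen for a fall with NH4Cl.

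NOTCH3 (ENSG00000074181; chromosome 19, 15159038 to 15200981, minus strand) had an FPKM of 1.05, 0.936 and 2.46 in control replicates 1, 2 and 3 and 1.02, 0.771 and 2.11 with TGF-β. It was 1.48, 1.63 and 2.98 with NH4Cl and 1.32, 1.5 and 3.35 with NH4Cl + TGF-β. Replicate 3 was high in every group, so the groups overlapped, and within each replicate number the library with NH4Cl was the higher. For NOTCH3 this log2 fold change was 0.39 (standard error 0.319, limma adjusted p = 0.683), higher in 3 of 3 replicates, with a ratio of means of 1.58. It passed the threshold with the block (standard error 0.0796, limma adjusted p = 0.00878) but not in replicates 1 and 2 with the block, where it was 0.35 (limma adjusted p = 0.0816, higher in both). Without the block, leaving out replicate 3 of the NH4Cl + TGF-β cells brought NOTCH3 to 0.11. Leaving out replicate 3 of the TGF-β-treated cells instead brought it to 0.63. NOTCH3 had 110 to 535 reads per library, fewer than the other receptors. NOTCH1 made up 57.8% to 73.9% of the summed FPKM of the 3 receptors over the 12 libraries. The share of NOTCH3 was 3.57% to 12.2% in the control group, 2.99% to 9.78% with TGF-β, 6.68% to 15.6% in the NH4Cl group and 6.54% to 16.1% with both.

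**Figure D2:**
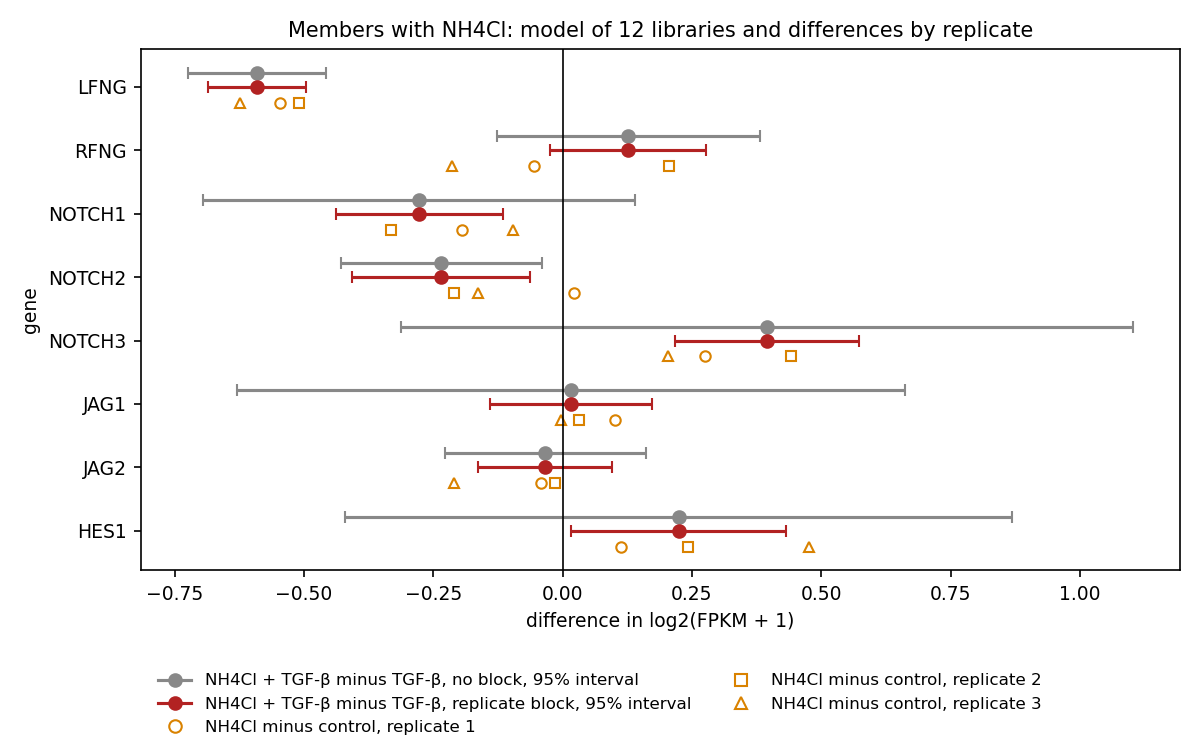
Differences in log2(FPKM + 1) for the 8 genes tested, with filled circles and 95% intervals for NH4Cl + TGF-β minus TGF-β in the limma model of 12 libraries without and with the replicate block, and open symbols for NH4Cl minus control in each replicate. LFNG lies at -0.59 with both intervals under 0, and the block narrows the interval of NOTCH3 from -0.31 to 1.10 to 0.22 to 0.57.

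JAG1 and JAG2 encode ligands of the Jagged family. JAG2 (ENSG00000184916; chromosome 14, 105140981 to 105168824, minus strand) was at a level near that of LFNG, with an FPKM of 46.0, 45.3 and 51.3 in control replicates 1, 2 and 3, 44.5, 45.2 and 55.9 with TGF-β, 44.7, 44.8 and 44.2 with NH4Cl, and 44.4, 47.3 and 49.9 with NH4Cl + TGF-β. Its libraries overlapped between NH4Cl + TGF-β and TGF-β. Between NH4Cl and control cells the difference of JAG2 was -0.09 on the log2 scale, given as a description with no test. JAG1 (ENSG00000101384; chromosome 20, 10637684 to 10673999, minus strand) had an FPKM of 4.34, 4.92 and 7.79 in control replicates 1, 2 and 3, 4.97, 4.22 and 8.29 with TGF-β, 4.72, 5.05 and 7.77 with NH4Cl, and 4.44, 4.71 and 8.62 with NH4Cl + TGF-β. Its groups overlapped throughout, and replicate 3 was the high library in each. Between NH4Cl + TGF-β and TGF-β the log2 fold change was -0.03 for JAG2 (95% interval -0.23 to 0.16, limma adjusted p = 0.926, lower in 2 of 3 replicates) and 0.02 for JAG1 (95% interval -0.63 to 0.66, limma adjusted p = 0.990, higher in 2 of 3). With the block these intervals narrowed to -0.16 to 0.10 for JAG2 and -0.14 to 0.17 for JAG1. In replicates 1 and 2 only, the sign turned for both genes, with values of 0.03 for JAG2 and -0.000927 for JAG1. JAG2 shares 469 exon bases with AL512356.1 on the same strand and JAG1 shares 79 with AL050403.2 on the opposite strand.

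HES1 and HEY1 encode transcriptional repressors that Notch signaling turns on. HES1 (ENSG00000114315; chromosome 3, 194136145 to 194138732, plus strand) was at an FPKM of 3.15, 3.11 and 4.81 in control replicates 1, 2 and 3 and 4.20, 3.45 and 5.87 with TGF-β. It was 3.49, 3.86 and 7.08 with NH4Cl and 4.15, 4.19 and 8.48 with NH4Cl + TGF-β. Replicate 3 was the highest library of each group, and all groups overlapped. The log2 fold change between NH4Cl + TGF-β and TGF-β was 0.22 (standard error 0.291, limma adjusted p = 0.823), higher in 2 of 3 replicates, and the limma adjusted p with the block was 0.124. In replicates 1 and 2 it was 0.10, and between NH4Cl and control cells the differences of HES1 by replicate were 0.11, 0.24 and 0.48. Without the block, leaving out replicate 3 of the NH4Cl + TGF-β cells turned the sign of HES1 against TGF-β, to -0.0676. Leaving out replicate 3 of the TGF-β-treated cells instead brought it to 0.40. HEY1 (ENSG00000164683) ranged from 0.342 to 1.01 FPKM, with group means of 0.511 in the control group, 0.594 with TGF-β, 0.712 in the NH4Cl group and 0.674 with both, and was not tested.

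The 8 genes tested in NH4Cl + TGF-β against TGF-β can be read against all genes. LFNG passed in the 3 models counted in this paragraph, but not with only the 2 groups compared (limma adjusted p = 0.212). It is left out of the counts, since it was chosen for a fall with NH4Cl. Without the block, 1 of the 7 others was at an unadjusted limma p under 0.05, beside 1642 of the 12341 genes. Past the threshold limma found 0 of the 7, while 1.03% of the 12341 genes passed (127 genes). By direction, the background was 0.251% lower (31 genes) and 0.778% higher (96 genes). With the block 2 of 7 passed, NOTCH1 lower and NOTCH3 higher, where 18.8% of genes did (2322 genes), 8.48% lower (1047 genes) and 10.3% higher (1275 genes). In replicates 1 and 2 with the block, 1 of 7 passed, NOTCH1, where 13.4% of genes did (1653 genes).

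At 1 h, TGF-β moved 0 of these genes past the threshold, LFNG not being tested here. Between TGF-β and control cells, limma found 0 of the 7 others tested, with log2 fold changes from -0.10 for NOTCH3 to 0.23 for HES1. Over all genes it found 0 of 12341 (0%), and 103 at an unadjusted p under 0.05. With the block limma found 1 gene (0.00810%), ID1, a target of SMAD signaling named here after its values had been seen, and 422 at an unadjusted p under 0.05. LFNG was higher with TGF-β in 3 of 3 replicates, with a difference of 0.10 on the log2 scale. Its lowest TGF-β library (68.8 FPKM) was only narrowly above its highest control library (68.3 FPKM). These values are given as a description, since the control libraries helped to choose LFNG. Between NH4Cl + TGF-β and NH4Cl, limma again found 0 of these 7, from -0.10 for NOTCH2 to 0.17 for HES1, and 0 of 12341 genes (0%; 165 unadjusted), or 1 with the block (0.00810%, again ID1; 879 unadjusted). LFNG was at 0.07 there, again as a description, higher in 3 of 3 replicates with overlapping libraries. The count of 1 gene with the block became 0 in both comparisons with a block of 2 levels, chosen after seeing the data. In replicates 1 and 2 with the block it was 1 for TGF-β against control and 0 for NH4Cl + TGF-β against NH4Cl. For the interaction of NH4Cl and TGF-β, limma found 0 of the 7 genes tested besides LFNG, from -0.12 for NOTCH2 to 0.15 for RFNG, and 0 genes in all without (0%; 115 unadjusted) or with the block (0%; 537 unadjusted). These comparisons share the control, TGF-β, NH4Cl or NH4Cl + TGF-β libraries with each other, so they are not independent of each other.

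Values with NH4Cl alone against control stood beside those with NH4Cl + TGF-β against TGF-β as follows, on the log2 scale. NOTCH1 was at -0.21 and -0.28, NOTCH2 at -0.12 and -0.23, and NOTCH3 at 0.31 and 0.39. For HES1 the values were 0.28 and 0.22, for JAG1 0.04 and 0.02, for JAG2 -0.09 and -0.03 and for RFNG -0.02 and 0.13. The low genes MFNG and HEY1 were at 0.09 and 0.18 with NH4Cl alone and at 0.13 and 0.08 in the presence of TGF-β. The first value of each pair describes the libraries that chose LFNG.

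The pathway around these genes was described by a list of 77 further genes in 10 roles, of which 75 had values and 61 passed the filter. HES5 reached the filter only through its libraries with NH4Cl and is left out of the counts here. MAML2 and AAK1 averaged 0.899 and 0.971 FPKM with NH4Cl + TGF-β and 1.04 and 1.07 with TGF-β. They stayed in the counts and did not pass with or without the block. Without the block, limma found 0 of the other 60 past the threshold between NH4Cl + TGF-β and TGF-β, beside 1.03% of all genes tested. At an unadjusted limma p under 0.05 were 9 of the 60, beside 1642 of the 12341 genes tested. With the block 13 of the 60 passed, 8 higher and 5 lower, beside 18.8% of all genes tested. With HES5 included, the median log2 fold change of the 61 genes was -0.02, with 26 higher and 35 lower, beside 0.00 over all genes. The values ran from -0.41 to 0.71, the highest being HES5.

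Of the other HES and HEY family and feedback genes, 7 passed the filter, HES5 among them. HES5, a repressor of the same family as HES1, had an FPKM of 1.04, 0.401 and 0.827 in control replicates 1, 2 and 3, 1.11, 0.605 and 0.790 with TGF-β, 1.69, 1.59 and 1.85 with NH4Cl, and 2.15, 1.75 and 2.03 with NH4Cl + TGF-β. Every library with NH4Cl was above every library without it, on 9 to 45 reads per library. Its mean was 0.836 FPKM with TGF-β and 1.98 with both agents, so the filter at a mean of 1 admitted HES5 through the groups where it was high. The log2 fold change of HES5 was 0.71 between NH4Cl + TGF-β and TGF-β, with a ratio of means of 2.37, higher in 3 of 3 replicates. Its test is therefore given with no filter on FPKM, where it did not pass without the block (limma adjusted p = 0.103) and passed with it (limma adjusted p = 0.00652), the setting with the block and no filter being chosen after seeing the data. Of the other 6 genes of this role that were tested, 3 passed with the block, all higher, where 18.8% of all genes passed and 10.3% were higher. HES7, an oscillating repressor of the segmentation clock, was at 12.1 to 20.7 FPKM with TGF-β and 16.3 to 23.9 with both agents. NRARP, a feedback inhibitor of the Notch nuclear complex, was at 22.8 to 28.9 and 26.5 to 42.3. Their log2 fold changes were 0.36 and 0.34, higher in 3 of 3 replicates, with limma adjusted p-values of 0.00899 and 0.00363 with the block and 0.609 and 0.467 without it. The third was HES6, a family member that opposes HES1, at 0.12 (limma adjusted p = 0.0435 with the block, higher in 3 of 3 replicates), named after its values were seen. Its call was lost without any library other than NH4Cl replicate 2 or NH4Cl + TGF-β replicate 1, at limma adjusted p-values up to 0.167. With the block it was also lost in replicates 1 and 2 (0.12, limma adjusted p = 0.145, higher in both) and, in settings chosen after seeing the data, with TPM (0.12, limma adjusted p = 0.101) and with median centring (0.11, limma adjusted p = 0.0525), higher in 3 of 3. With the block and no filter on FPKM, another such setting, HES6 was at 0.12 and did not pass (limma adjusted p = 0.0810, higher in 3 of 3).

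In each of the next 7 roles 1 gene passed in the model of 12 libraries with the block, and 0 did without it. DLL3, a Delta-like family member that does not activate Notch on neighbouring cells, was higher, at 8.78 to 11.0 FPKM with TGF-β and 10.3 to 14.9 with NH4Cl + TGF-β (log2 fold change 0.41, higher in 3 of 3 replicates, limma adjusted p = 0.00374 with the block). MIB1, a ubiquitin ligase that ligands need to signal, was at 12.2 to 13.0 FPKM with TGF-β and 13.0 to 17.6 with both agents, with narrowly no overlap (log2 fold change 0.27, higher in 3 of 3 replicates, limma adjusted p = 0.0119 with the block). When replicate 2 of the NH4Cl + TGF-β cells was left out, MIB1 was at 0.24 (limma adjusted p = 0.0533 with the block, higher in both replicates left). DTX4, a ubiquitin ligase of the Deltex family, was at 0.29 (limma adjusted p = 0.0464 with the block, higher in 3 of 3 replicates). Lower with the block were NCSTN, a subunit of γ-secretase, by -0.20 (limma adjusted p = 0.00825), and POFUT1, which adds the fucose that fringe enzymes extend, by -0.13 (limma adjusted p = 0.0310), both in 3 of 3 replicates. CREBBP, a histone acetyltransferase recruited by the nuclear complex, was at -0.22 (limma adjusted p = 0.0293 with the block), and TLE3, a corepressor of the Groucho family, at -0.16 (limma adjusted p = 0.0304 with the block), each lower in 3 of 3 replicates. In replicates 1 and 2 with the block, 11 of the 60 genes of the list besides HES5 passed, 3 of which had not passed in 12 libraries, where 13.4% of all genes did, while MIB1, POFUT1 and DTX4 were not past the threshold, at 0.20, -0.14 and 0.29 and limma adjusted p-values of 0.102, 0.0743 and 0.158, in the same direction in both replicates. With the block and median centring, a setting chosen after seeing the data, DTX4 was at 0.29 (limma adjusted p = 0.0539, higher in 3 of 3 replicates). With the block and TPM, a setting chosen after seeing the data, POFUT1, DTX4, CREBBP and TLE3 were no longer past the threshold, at limma adjusted p-values of 0.0811, 0.0532, 0.0668 and 0.0767 and with the same direction in 3 of 3 replicates at log2 fold changes of -0.13, 0.43, -0.25 and -0.17. With the block and no filter on FPKM, also chosen after seeing the data, DTX4, CREBBP and TLE3 kept their fold changes but did not pass. Their limma adjusted p-values were 0.107, 0.0662 and 0.0585. With the block and 1 library left out, POFUT1 was lost without replicate 1 or 2 of the control or the TGF-β-treated cells or replicate 1 or 3 of the NH4Cl + TGF-β cells (limma adjusted p up to 0.126). CREBBP was lost without any of the 3 TGF-β libraries or replicate 1 or 2 of the NH4Cl + TGF-β cells (up to 0.106), and TLE3 without replicate 1 or 3 of the TGF-β-treated cells or replicate 1 or 2 of the NH4Cl + TGF-β cells (up to 0.111). DTX4 kept its call only without NH4Cl replicate 2 or 3 or NH4Cl + TGF-β replicate 2 (up to 0.168 otherwise). By role, 1 of 2 ligands, 1 of 3 genes of ligand ubiquitination, 1 of 9 of O-glycosylation, 1 of 8 of receptor proteolysis, 1 of 10 of trafficking and turnover, 1 of 7 of the nuclear complex and 1 of 11 corepressors passed with the block, where 18.8% of all genes did. The receptor NOTCH4 was below the filter.

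**Figure D3:**
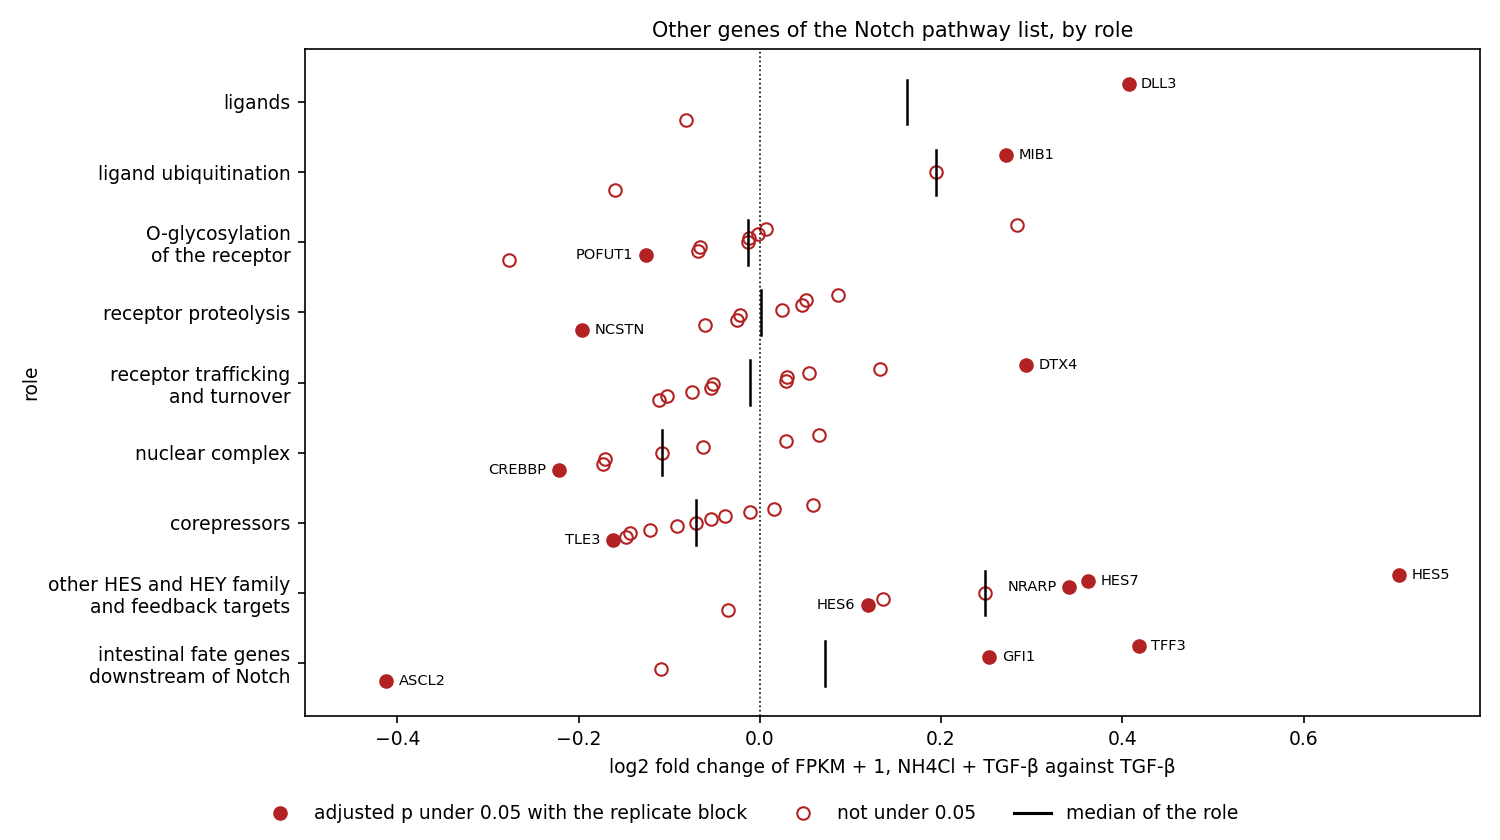
Log2 fold change of FPKM + 1 between NH4Cl + TGF-β and TGF-β for the 61 tested genes of the list, by role on the vertical axis, with filled circles for the 14 genes past the threshold with the replicate block and a line at the median of each role. HES5 lies highest at 0.71 and ASCL2 lowest at -0.41. HES5 is 1 of the 14 but reached the filter only through its libraries with NH4Cl, so it is not counted as a call in the text. The median line of its role includes it.

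Of the intestinal fate genes downstream of Notch, 4 were tested and 3 passed with the block, GFI1 and TFF3 higher and ASCL2 lower, where 18.8% of all genes did. ASCL2, a transcription factor of intestinal stem cells, had an FPKM of 60.0, 58.2 and 45.2 in replicates 1, 2 and 3 with TGF-β and 46.0, 44.6 and 32.0 with NH4Cl + TGF-β. In control cells it was 55.8, 54.3 and 42.1, and with NH4Cl 45.2, 42.4 and 31.0. Replicate 3 was lower in each group, and within each replicate number both values with NH4Cl lay under both without it. The log2 fold change of ASCL2 between NH4Cl + TGF-β and TGF-β was -0.41, lower in 3 of 3 replicates (limma adjusted p = 0.374, and 0.000172 with the block). GFI1, a transcription factor of secretory cells, was at 4.25 to 5.15 FPKM with TGF-β and 5.41 to 6.40 with both agents, with no overlap, at a log2 fold change of 0.25 in 3 of 3 replicates (limma adjusted p = 0.262, and 0.00693 with the block). GFI1 did not pass in replicates 1 and 2 with the block, at 0.24 (limma adjusted p = 0.0588, higher in both). TFF3, a peptide secreted by goblet cells, differed most between replicate numbers, at 133 and 174 FPKM in replicate 3 of the TGF-β and NH4Cl + TGF-β cells against 38.0 to 45.8 and 55.3 to 58.3 in the others. Its log2 fold change was 0.42, higher in 3 of 3 replicates (limma adjusted p = 0.866, and 0.00536 with the block). Other secretory genes of the list, among them SPDEF, MUC2 and CHGA, were below the filter.

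**Figure D4:**
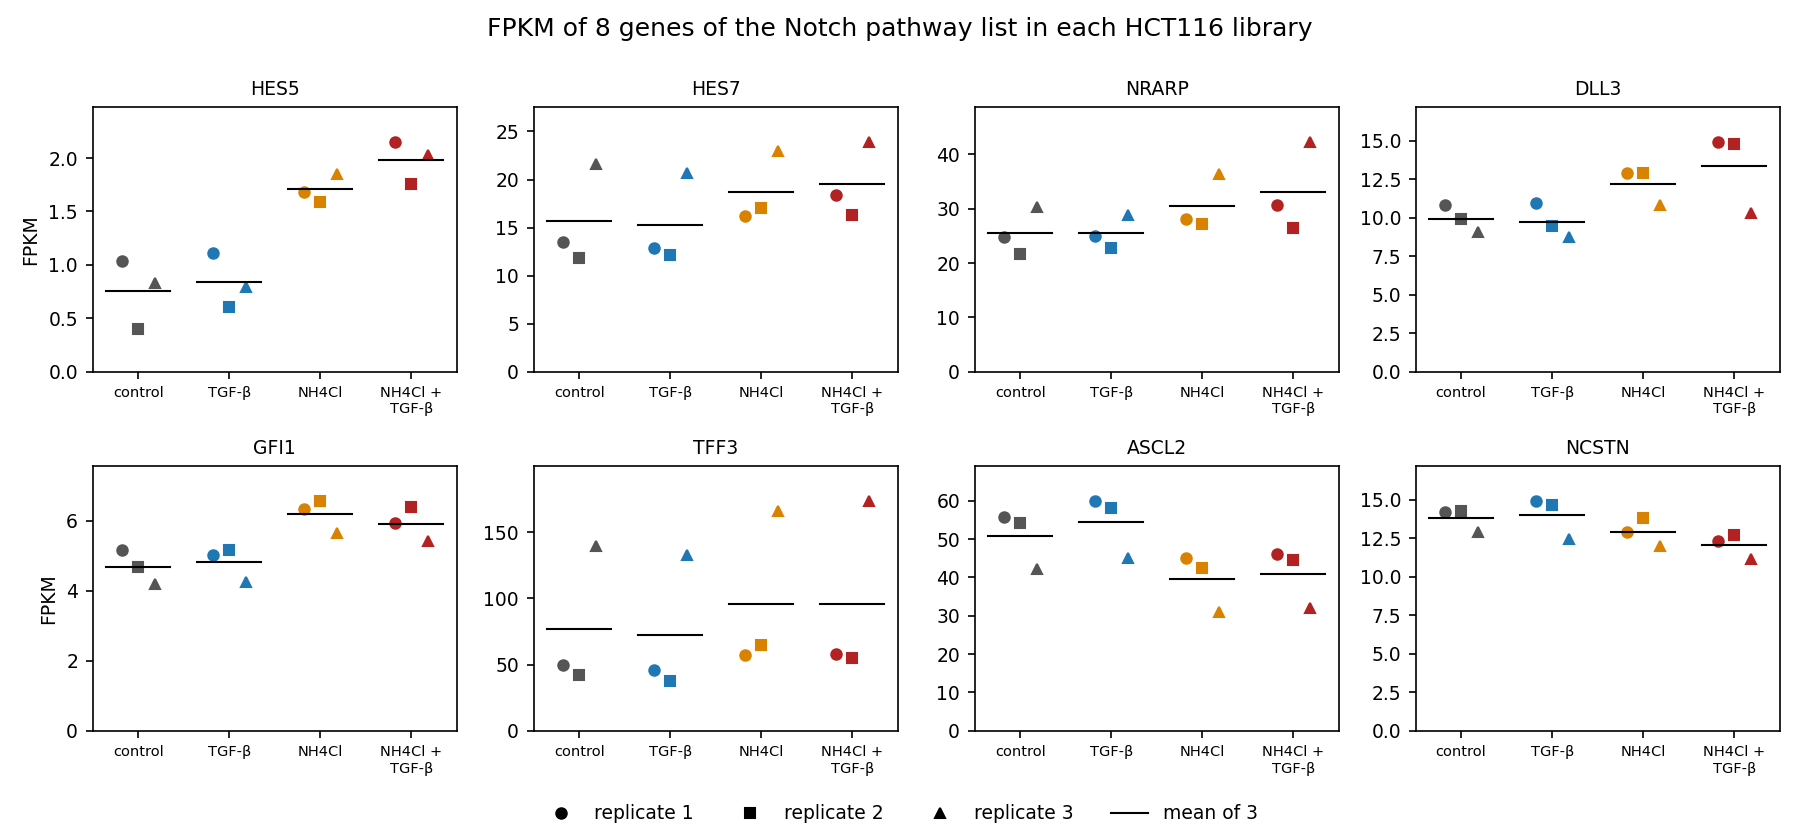
FPKM of 8 genes of the Notch pathway list in each of the 12 libraries, by group, with a symbol for each replicate number and a line at the mean of 3. HES5 lies at 0.401 to 1.11 without NH4Cl and at 1.59 to 2.15 with it, and replicate 3 of TFF3 lies at 133 to 174.

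Start regions of HES1 and HES5 are printed for comparison with those of LFNG, since HES1 is a direct Notch target among the 10 genes and HES5 was the gene of the list with the largest fold change. They come from the same RefSeq windows on GRCh38.p14, and capitals again mark TGGGAA or TTCCCA. The HES1 window is chr3:194135898-194136197 on the plus strand and holds the motif at -84 to -79 and at -70 to -65. The HES5 window is chr1:2530214-2530513 on the minus strand and holds it at -224 to -219, as TTCCCA, and at -80 to -75.
HES1: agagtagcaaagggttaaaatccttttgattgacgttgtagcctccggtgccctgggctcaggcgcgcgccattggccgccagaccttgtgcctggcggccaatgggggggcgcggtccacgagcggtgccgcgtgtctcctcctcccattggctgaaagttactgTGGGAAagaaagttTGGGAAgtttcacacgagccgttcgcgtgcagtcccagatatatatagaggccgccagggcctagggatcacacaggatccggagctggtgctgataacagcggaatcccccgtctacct
HES5: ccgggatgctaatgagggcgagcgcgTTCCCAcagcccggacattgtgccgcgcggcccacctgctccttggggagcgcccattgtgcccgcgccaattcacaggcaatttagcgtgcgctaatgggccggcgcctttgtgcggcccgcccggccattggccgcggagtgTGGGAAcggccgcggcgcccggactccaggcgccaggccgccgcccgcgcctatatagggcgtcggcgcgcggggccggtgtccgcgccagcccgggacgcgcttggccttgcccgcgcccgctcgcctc
At least 2 matches were present in 3.80% of all windows. The longer letters GTGGGAA or TTCCCAC, which contain the shorter motif, were in 6.25% of all windows, in the first HES1 match and both HES5 matches, and in neither LFNG window. Among the 8 genes of the HES and HEY family and feedback role, 4 held the shorter motif (HES4, HES5, HEY2 and HEYL), and of the 65 genes of the list with windows 17 did. A match describes these letters only.

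The genes whose pattern was most like that of LFNG were found by Pearson correlation over the 12 libraries, on log2(FPKM + 1) with each library centred on the mean of its replicate number. Highest were KRT5, a keratin of basal epithelia (r = 0.992), NOTUM, a secreted inhibitor of Wnt ligands (0.991), ASCL2 (0.991), HNRNPA0, an RNA-binding protein (0.991), and MAU2, a loader of cohesin (0.988). All 5 had their 6 libraries with NH4Cl on the other side of 0 from the 6 without it after centring, and these coefficients mostly describe that division. Such values are common: 412 of 12340 genes had r above 0.9 and 466 had r under -0.9. KRT5 was at 430 to 517 FPKM in TGF-β-treated cells and 314 to 351 with NH4Cl + TGF-β. Among the Notch genes, r with LFNG was 0.841 for NOTCH1, 0.667 for NOTCH2 and -0.935 for NOTCH3. It was 0.547 for JAG2, -0.200 for JAG1, -0.259 for RFNG and -0.620 for HES1. Among all genes, the r of NOTCH1 stood at percentile 93.1, NOTCH2 at 82.4, NOTCH3 at 1.82 and HES1 at 20.8. Without centring, r was 0.413 for NOTCH1, 0.590 for NOTCH2 and -0.363 for NOTCH3. For JAG2, JAG1, RFNG and HES1 it was then 0.441, 0.0368, -0.0903 and -0.240. All of these values hold the libraries that chose LFNG, and they were not tested.

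**Figure D5:**
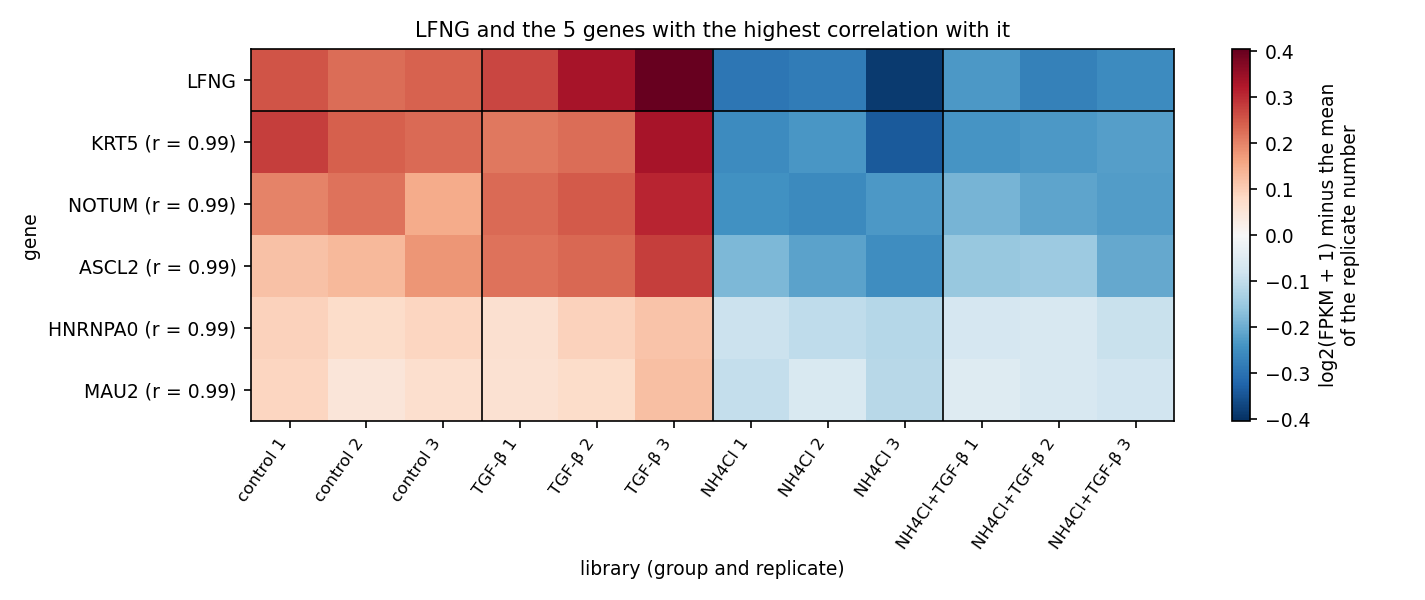
Log2(FPKM + 1) of LFNG and of the 5 genes with the highest correlation with it, minus the mean of the replicate number, in each of the 12 libraries, as a color scale. LFNG ranges from -0.39 in NH4Cl replicate 3 to 0.40 in TGF-β replicate 3.

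Markers of cell types were used to check that these levels belong to an epithelial line. Of 8 colon epithelial markers, 7 had a mean FPKM of at least 1, with KRT18 the most abundant and KRT20 at 0.0583 to 0.416, and their sum was 2281 to 3426 FPKM. This sum was 2415 to 3426 without NH4Cl and 2281 to 3023 with it. Within each replicate number KRT19 was lower with NH4Cl (537 to 783 without, 422 to 614 with). EPCAM was higher (229 to 248 without, 253 to 278 with), and neither difference was tested. Of the leukocyte markers 3 had values and 0 reached a mean of 1, with a sum of 0.289 to 1.13 and CD14 the most abundant. Of 3 endothelial markers, VWF alone reached a mean of 1, at 1.27 to 6.44 FPKM, while PECAM1 was at 0.00750 to 0.0911 and CDH5 at 0.137 to 0.355. The sum of the endothelial markers was 1.56 to 4.35 without NH4Cl and 2.66 to 6.84 with it, and VWF, like NOTCH3, was higher in replicate 3 and with NH4Cl. Of 4 fibroblast markers, COL1A1 alone reached a mean of 1, the sum was 1.29 to 2.97, and COL1A2 was at 0 to 0.0185. MYOD1, a muscle regulator, was at 0 to 0.300.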

How the data were processed

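RNA sequencing of HCT116 cells was analysed in 12 libraries, 3 for each of 4 groups, with group and replicate number taken from the labels. The notes of the submitters list Trimmomatic 0.36, STAR 2.5.2b and featureCounts of Subread 1.5.2 with GRCh38, while the methods of the study name HTSeq for counting and DESeq2 for the comparisons, and the labels and methods name different RNA kits. The authors deposited FPKM values for 25733 genes, all of which matched GENCODE release 29 by identifier. FPKM times exon length gave a whole number of reads, within 0.1, for 100.0% of values above 0, and these reads gave the depth of 14807630 to 18191998 per library. They cover counting error only and were not tested.

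FPKM + 1 was put on the log2 scale, and genes averaging 1 FPKM or more, 12341 in number, were tested in limma 3.58.1 (R 4.3.3) by two-sided moderated t-statistics, with a trend in mean level and 4 group means, with Benjamini-Hochberg adjustment over all genes tested. The script was tested on simulated data. Other steps used Python 3.11.15, numpy 2.4.6, pandas 2.3.3 and matplotlib 3.10.9. The replicate number was taken to pair libraries from the data, since no label says what it stands for: deviations from the group means correlated between libraries of the same number in 18 of 18 pairs (r = 0.349 to 0.774). Replicates 1 and 2 of different groups also correlated (0.341 to 0.486), replicate 3 ran against them (-0.655 to -0.464), and differences between replicates 1 and 2 hardly correlated between groups (0.00045 to 0.083). The pairing is thus mainly that of replicate 3 against the others.

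The genes named are the 10 genes chosen, the genes of the pathway list past the threshold with or without the block (at most 3 per role, those with the largest fold changes, and HES6 as the last of its role), ID1 as the only gene past the threshold with TGF-β, and the 5 genes with the highest correlation with LFNG. Genes with the lowest correlation are not reported here. The genes and lists were chosen with earlier results of these data known, from general knowledge of the pathway. The alternatives were a pseudocount of 0.1, no filter, a mean FPKM of at least 5, scaling to the same sum (TPM), median centring, only the 2 groups compared, no intensity trend, the replicate block, replicates 1 and 2 only, and each library left out. The block combined with TPM, median centring, the pseudocount or no filter, and a block of 2 levels (replicate 3 and the others), were chosen after seeing the data. Protein sequences and a genome sequence were not used here.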

Additional observations from a re-analysis of the deposited data

How the results depend on the processing

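LFNG kept its direction between NH4Cl + TGF-β and TGF-β under all alternatives, at -0.60 to -0.56, and stayed past the threshold in each except the model of only the 2 groups compared, where it was -0.59 (limma adjusted p = 0.212, lower in 3 of 3 replicates). In that model the spread comes only from the 2 groups compared, without the libraries that chose LFNG. Why the call was lost was not tested. With 1 library left out LFNG was at -0.63 to -0.54 with limma adjusted p-values of at most 0.0424 (lower in every replicate left), and between NH4Cl and control it was at -0.59 to -0.54. RFNG, NOTCH1, NOTCH2 and NOTCH3 kept their direction throughout, although with 1 library left out they ranged from 0.05 to 0.21, from -0.41 to -0.18, from -0.30 to -0.13 and from 0.11 to 0.63. HES1 turned only without NH4Cl + TGF-β replicate 3 (-0.0676 to 0.40 with 1 library left out). JAG1 and JAG2 turned in replicates 1 and 2, at -0.000927 and 0.0306 with the block and without it, and with 1 library left out they ranged from -0.25 to 0.26 and from -0.0908 to 0.0701. The count of Notch genes besides LFNG past the threshold in the other comparisons, 0, was the same under every alternative run. The model of only 2 groups has no interaction.

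Between NH4Cl + TGF-β and TGF-β, the count of the Notch genes past the threshold moved from 1 to 0 with only the 2 groups, to 3 with the replicate block, to 2 in replicates 1 and 2 with the block or without it, and, with the block and in settings chosen after seeing the data, to 2 with TPM, 3 with median centring, 3 with a pseudocount of 0.1, 2 with no filter and 3 with a block of 2 levels. With 1 library left out it was 1 in all 12 models without the block and 2 to 4 with it. LFNG was lost with only the 2 groups, and the genes added were NOTCH1, NOTCH2 or NOTCH3. With the block, NOTCH1 was the gene lost with TPM and with no filter. Over all genes, the count of 127 became 51 with no filter, 45 with TPM, 0 with only the 2 groups, 2322 with the block, 1653 in replicates 1 and 2 with the block and 1740 without it, and with the block 1896 with TPM, 2370 with median centring, 2291 with a pseudocount of 0.1, 1574 with no filter and 2401 with 2 levels. With 1 library left out it was 3 to 133 without the block, lowest without TGF-β replicate 2, and 1249 to 2365 with it. For the pathway list with HES5, the count of 1 became 0 with a pseudocount of 0.1, no filter, a mean FPKM of at least 5 (HES5 is then not tested), TPM, median centring and only the 2 groups. It became 14 with the block, 12 in replicates 1 and 2 with it and 10 without it. With the block it was 9 with TPM, 14 with median centring (7 higher and 7 lower, beside 9 and 5), 13 with a pseudocount of 0.1, 10 with no filter and 15 with 2 levels. With 1 library left out it was 0 to 1 without the block and 9 to 15 with it. The causes of these moves were not tested. The block changed no call other than those given with the results. Of the 5 genes most like LFNG, 1 was shared with the list found without centring, 0 with that by Spearman correlation and 1 with that in replicates 1 and 2, so the names depend on the measure. Depth limits low genes such as MFNG, HEY1 and HES5, since each had at most 64 reads in any library.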
